A study of Homo sapiens and Mus musculus with 21 samples.

Results

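The regions described here are the strongest entries of the authors' strict list of putative m6Am regions in HEK293T cells that also sit at the start of a gene. A region was taken where its deposited score was 3.5 or more and an annotated gene start of the same strand lay within 50 nt of it. This gave 424 of the 2360 regions of the list (17.97%), and 424 of the 1856 regions that have a gene start within that distance. They name 424 genes, 1 region per gene, of which 410 code for protein, 13 are pseudogenes and 1 is a microRNA gene, MIR4444-2. The members were chosen by the deposited score, a measured value of the WT miCLIP list, and by distance, so both are described below without a test.

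The study compared HEK293T cells lacking PCIF1, the knockout (KO), with wild-type (WT) HEK293T cells, an established line derived from human embryonic kidney. The groups used were 2 PCIF1 KO and 1 WT libraries of miCLIP, 3 KO and 2 WT libraries of ribosome-protected fragments, and 3 KO and 2 WT libraries of the matching input RNA. The authors' KO over WT table of SLAM-seq, in which RNA is labelled with 4-thiouridine and the loss of label is followed, was also used. The SLAM-seq samples are 1 KO and 1 WT library at each of 3 chase times. Which of these times enter that table is not stated. The labels do not say how the knockout was made, how many clones it covers, or that replicates were separate cultures, and a p-value here reflects the scatter among libraries alone. The level of PCIF1 itself was not analysed, and the genotype labels were therefore not checked against it.

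m6Am is an adenosine that carries a methyl group on its ribose and another on its base, and it occurs as the first transcribed base of an mRNA, next to the cap. PCIF1 binds the phosphorylated tail of RNA polymerase II and adds the base methyl group to capped transcripts that begin with adenosine. m6A is the related mark inside transcripts, placed by the METTL3 and METTL14 complex at DRACH motifs. miCLIP crosslinks an antibody against the methylated base to RNA, and the antibody recognises both marks. The antibody alone therefore does not separate them. Position helps, since m6Am lies at transcript starts.

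Human transcription often begins at an adenosine that follows a cytosine. The sequences around the starts of the 5 highest-scoring members with a RefSeq window are shown because the mark, where present, lies on the first transcribed base. Each runs 5′ to 3′ from 20 bases before the annotated start to base 10 of the transcript on GRCh38.p14, and the 2 capitals are the base before the start and the first transcribed base.
BUB1 (chr2:110678054-110678083, minus strand): cgactgcggctgcgcggggTAttcgaatcg
ETFA (chr15:76311460-76311489, minus strand): cgttcgcgcgtctcgcgagCAttaggtgac
COX8A (chr11:63974600-63974629, plus strand): aacttccggccagcgcagcCAttttggctt
SNRPF (chr12:95858932-95858961, plus strand): ggaggtgaaaggtcatagtCCtgtttggcg
MRFAP1 (chr4:6640665-6640694, plus strand): tggttgacggccgggactcCAttttgttcg
BUB1, ETFA, COX8A and MRFAP1 have an annotated first base A, and SNRPF has C. In ETFA, COX8A and MRFAP1 the first A follows a C and is followed by T.

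The annotated first base was A in 226 of the 345 member genes with a RefSeq window at the start (65.5%, exact Clopper-Pearson interval 60.2 to 70.5%). It was A in 56.3% of 1093 genes with a lower-scoring start region and in 50.1% of 12382 genes with no region at the start. The rule used score and distance but not sequence. Whether the authors used the start sequence to pick regions for their list is not given. The difference from genes with no region may therefore reflect that choice, which was not tested. A first base G was found in 23.5% of members, 32.6% of lower-scoring genes and 36.8% of genes with no region, and C in 10.7%, 10.8% and 11.3%. Where the members' first base was A, the base before it was C in 169 of 226 genes (74.8%) and T in 43.

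A CATT at the start, meaning a C just before it and then ATT, was found in 35 of 345 members (10.1%), in 3.48% of lower-scoring genes and in 2.16% of genes with no region. Anywhere from 12 bases before the start to base 11 of the transcript, CATT on the transcript's strand was found in 81 members (23.5%, 19.1 to 28.3%), in 8.97% of lower-scoring genes and in 6.17% of genes with no region. This motif was searched after the sequences of the highest members had been seen, so it has no test, and a match in these letters is a description and not a mapped start. The longer CATTTT at the start, which contains CATT, occurred in 8 members (2.32%), in 3 of 1093 lower-scoring genes (0.274%) and in 10 of 12382 genes with no region (0.0808%). Among members whose annotated first base was not A, 33 of 119 held CATT in this window, and in 18 of them its A lay at base 2 to 5 of the annotated transcript. DDX17, EIF1AX and UBE2K are shown because the annotated first base is G and a CCATTT stands just behind it.
DDX17 (chr22:38506302-38506331, minus strand): gagccgactcagcggcggcCGccattttgt
EIF1AX (chrX:20141829-20141858, minus strand): gcgacgcaaagagtcgcggCGccatttgct
UBE2K (chr4:39698116-39698145, plus strand): tgcgcatgcgccgacccggCGccattttgg
In all 3 the A of CATT is base 4 of the annotated transcript.

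Other promoter letters were read in the same windows. GGGCGG, the core of the GC box, stood on either strand within the 250 bases before the start in 72.5% of members, 72.1% of lower-scoring genes and 54.1% of genes with no region. CCAAT, read in the same way, was found in 45.2%, 40.7% and 34.4%. TATAA lying wholly from 40 to 16 bases before the start was found in 18 members (5.22%), in 1.83% of lower-scoring genes and in 6.41% of genes with no region. A first base C with at least 4 pyrimidines in the next 5 bases, the letters of a terminal oligopyrimidine start, was found in 7.25%, 7.14% and 6.42%. The median GC content of the 300-base window was 64.3% in members, 64.3% in lower-scoring genes and 62.3% in genes with no region.

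The scores of the 424 members ran from 3.502 to 5.23, with a median of 3.90, against 2.012 to 3.4998 and a median of 2.74 in the 1432 lower-scoring start regions. The score is the authors' value for each region, and its scale is not given in the sources used here. In 256 members it lay between 3.5 and 4, in 168 it was at least 4, in 54 at least 4.5 and in 11 at least 5. Just inside the threshold were the regions of NPRL2 (3.505), TOMM22 (3.505) and XAB2 (3.502), and just outside were those of RBM5 (3.4998), TPI1P1 (3.497) and LMNB2 (3.494). These 6 values differ by far less than the range over the members, so the threshold divides a continuous distribution.

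**Figure D1:**
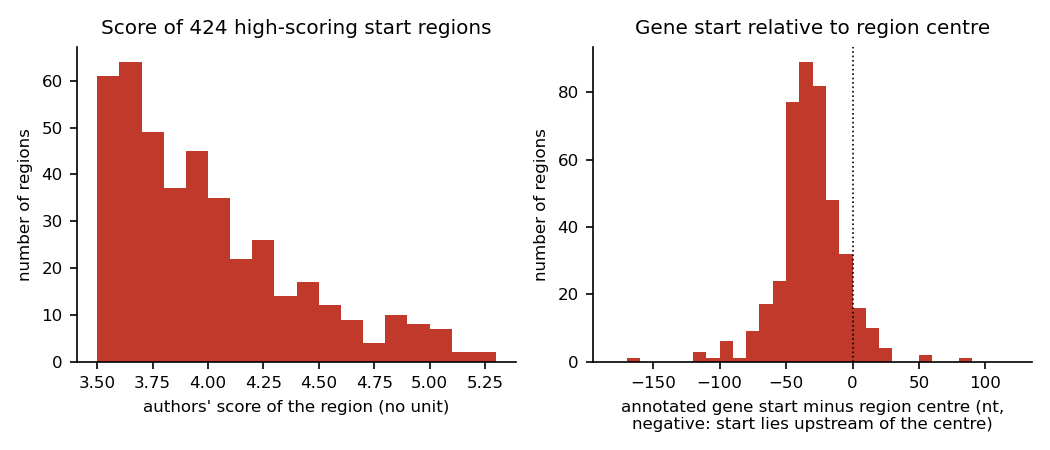
Histograms of the authors' score (left, no unit) and of the annotated gene start minus the region centre (right, nt) for the 424 member regions, in numbers of regions. Scores run from 3.502 to 5.23 with a median of 3.90, and most starts lie upstream of the centre, with a median offset of -31.5 nt.

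Of all regions at or above the score threshold, 424 of 510 had a gene start (83.1%, 79.6 to 86.3%), against 77.4% (75.4 to 79.3%) of the 1850 regions below it. Of the other 86 high-scoring regions, 59 lay within 50 nt of the start of another RefSeq transcript. The members usually contained the start itself, in 397 of 424 regions (93.6%), against 81.7% of the lower-scoring start regions. The start lay upstream of the region's centre, with a median offset of -31.5 nt in members and -25.5 nt in lower-scoring start regions. Regions were given in steps of 50 nt, and 257 members were 100 nt wide and 133 were 150 nt wide. In 11 members more than 1 gene start lay in reach, as for CPNE1 and RBM12, and the strand of 47 member genes is not in the tables used, so the region's strand was taken for them.

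The 10 highest scores belonged to genes of unlike function. BUB1, a kinase of the spindle checkpoint, and FTH1, the heavy chain of ferritin, both scored 5.23. ETFA, a subunit of the electron transfer flavoprotein of mitochondria, scored 5.13, and COX8A, of cytochrome c oxidase, scored 5.11. SNRPF, a core protein of spliceosomal snRNPs, scored 5.09 and MRFAP1, a MORF4-related protein partner, 5.07. CHCHD10, a protein of the mitochondrial intermembrane space, and RAB1A, a GTPase of transport from the endoplasmic reticulum to the Golgi, both scored 5.04. HSD17B10, a mitochondrial dehydrogenase that is also a subunit of mitochondrial RNase P, and EIF1AXP1, a pseudogene of the initiation factor gene EIF1AX, both scored 5.02. EIF1AX itself is a member, with a score of 4.89.

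That pairing recurred. Of the 13 pseudogenes, 10 are copies of a gene that is itself a member: PHB1P12 (4.70) and PHB1P10 (3.67) of PHB1 (4.64), and YBX1P1 (4.62) and YBX1P6 (4.40) of YBX1 (4.76) are among them. YBX1 encodes a cold-shock-domain RNA-binding protein and PHB1 a prohibitin of the inner mitochondrial membrane. RPL24P4, EIF4EP2 and RPL7P22 copy genes without a region at their annotated start. Reads of near-identical copies may be placed at either locus, so these 13 regions, and likewise those of HSPA1B, POLR2J2 and POLR2J3, are uncertain as to the gene they come from.

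By function, members were most frequent among genes of oxidative phosphorylation and splicing. Of 90 coding genes listed for the respiratory chain and its electron carriers, 22 were members (24.4%), against 410 of all 20056 coding genes (2.04%), and 28 more had a lower-scoring start region. They included the NADH dehydrogenase subunits NDUFS1 (4.64), NDUFA9 (4.26) and NDUFA7 (4.21), the cytochrome c oxidase subunits COX8A and COX6C (4.995), the electron carrier CYCS (4.43), and the ATP synthase subunits ATP5MC3 (4.54) and ATP5F1B (4.42). Of 94 splicing genes, 22 were members (23.4%) and 22 more had a lower-scoring region. They included SNRPF, the SR protein SRSF6 (5.01), which regulates splice-site choice, and HNRNPC (4.80), which binds uridine tracts in nascent RNA. The shares carry no test, and a region needs reads to be listed, so abundant transcripts can enter more easily.

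Lists of translation proteins had smaller shares. The cytosolic ribosome list had 12 members of 88 (13.6%), led by RPL36 (4.27), RPS13 (4.24) and RPL23A (4.15). Translation factors and aminoacyl-tRNA synthetases had 10 of 97 (10.3%), led by EIF1AX, IARS1 (4.39) and MARS1 (4.28). The mitochondrial ribosome and protein import had 11 of 106 (10.4%), led by MRPL20 (4.58), MRPL9 (4.499) and the import channel subunit TIMM17A (4.48).

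Iron and nucleotide metabolism had the third largest share of the 15 lists, with 5 members of 31 (16.1%): FTH1, IMPDH2 (4.18), which makes guanine nucleotide precursors, the transferrin receptor TFRC (3.88), TYMS and ATIC. RNA polymerase and transcription had 11 of 139 (7.91%), led by POLR2J (4.81), SUPT4H1 (4.81) and POLR2J3. The proteasome and ubiquitin list had 10 of 155, led by PSMA4 (4.86), PSMD13 (4.51) and PSMD3 (4.22). Vesicle traffic had 12 of 272, led by RAB1A, SEC61G (4.70) and AP2S1 (4.30). Chaperones had 6 of 99, led by the chaperonin subunits CCT7 (4.71) and CCT2 (4.31). DNA replication and repair had 5 of 85, led by XRCC6 (4.498), the Ku70 subunit that binds broken DNA ends.

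The list closest to the share of all coding genes was mitosis and cell cycle, with 4 members of 163 (2.45%), and these were BUB1, AURKB (4.66), BIRC5 (3.97) and INCENP (3.77). AURKB, BIRC5 and INCENP are all subunits of the chromosomal passenger complex, which corrects attachments of chromosomes to the spindle. Ribosome biogenesis had 3 of 56 (5.36%), while 23 of the 56 had a lower-scoring region. Among 48 m6A and cap enzymes the 3 members were ZC3H13 (3.87) and METTL3 (3.65), both part of the m6A writer, and NCBP2 (3.65), the small subunit of the nuclear cap-binding complex. Among 37 decapping and decay genes 0 were members and 6 had a lower-scoring region. In all, 136 of the 410 coding members (33.2%) were in at least 1 of the 15 lists.

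**Figure D2:**
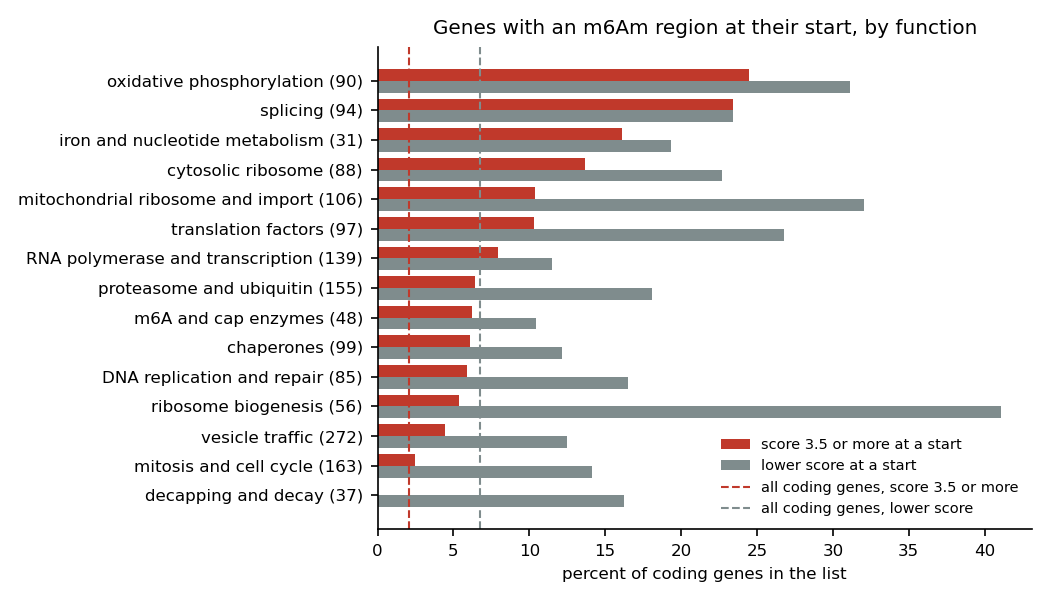
Percent of the coding genes in each functional list that have a member region (upper bar) or a lower-scoring start region (lower bar), with the number of coding genes in brackets and dashed lines for all 20056 coding genes. Oxidative phosphorylation (24.4%) and splicing (23.4%) have the largest shares of members, and decapping and decay has 0.

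RNA levels could be read for the 142 members that the files pair with an Ensembl identifier, all protein coding, and the other 268 coding members have none. The pairing comes from the authors' efficiency and SLAM-seq tables, so it favours genes that those tables hold. In the authors' classes of transcript start, 141 of the 142 are m6Am and 1, TIMM13, a chaperone of the mitochondrial intermembrane space, is A. The classes and the region list come from the same authors and study, so this match is not independent evidence. Levels are counts scaled to library size (CPM) and are not per length, so an order between genes also holds their lengths. In WT input, members had a median of 7.88 log2 CPM (236 CPM), against 7.40 in 272 lower-scoring genes, 6.74 in 975 genes with no region, and 4.77 over all 14629 genes tested. Among genes of the efficiency table alone the medians were 7.94 (132 members), 7.61 (212) and 7.59 (419). Within the members, score and WT level were nearly unrelated, with Spearman's rho of 0.05 over 142 genes of the same 2 libraries, over the narrow range of scores that the rule leaves. Over all 414 start regions with an identifier rho was 0.21.

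The members spanned a wide range of levels. PARP1, which adds ADP-ribose chains at DNA breaks, had 1072, 1052 and 1055 CPM in KO input and 1184 and 992 CPM in WT input. PRKDC, the DNA-dependent protein kinase, averaged 841 CPM in WT, the linker histone H1-2 835, the spectrin SPTAN1 822 and the RNA helicase DDX17 793. The lowest were TBC1D15, a Rab GTPase-activating protein, with 8.33 CPM, the kinase STK26 with 20.7 and the initiation factor EIF5B with 23.5. H1-2 belongs to a family of near-identical genes, and its mRNA normally lacks a poly(A) tail, while the libraries were made from polyadenylated RNA.

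The comparison of KO with WT input asks whether transcripts whose starts carry the region change in amount without PCIF1. In bulk RNA, fewer transcripts per cell and fewer cells with the transcript cannot be told apart. Of the 142 members, 0 were called by edgeR's quasi-likelihood test at a Benjamini-Hochberg adjusted p of 0.05, against 0.0342% of all genes tested (0 higher and 5 lower of 14629), and DESeq2 also called 0. At an unadjusted p of 0.05, 13 members were higher and 4 were lower in KO (12.0%), against 9.3% of all genes. The median log2 fold change, KO over WT, was 0.04 in members, 0.04 in lower-scoring genes and -0.02 over all genes. It was above 0 in 93 of 142 members (65.5%), against 59.9% of lower-scoring genes and 46.99% of all genes. In 28 members (19.7%) all 3 KO libraries lay above both WT libraries, against 10.7% of all genes, and in 6 (4.23%) all lay below, against 13.5%. Lower-scoring genes gave 15.1% and 5.15%, and genes with no region 13.1% and 10.8%.

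WT replicate 1 lay far from the rest of the input, at 33.2 on the first principal component (46.0% of the variance), against -12.9 to -2.94 for the other 4. Without it the members' median was 0.06, with 0 called. Without WT replicate 2, so with WT replicate 1 as the lone WT library, edgeR called 40 members (25 higher and 15 lower, 28.2%) and 1912 of 15386 genes (12.4%), on the assumption that a lone WT library varies like the KO libraries. With no filter on low counts it called 3 members, AP2B1, AMOT and CSE1L, against 0.496% of all genes.

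The 5 members with the smallest p in input lay on both sides of 0. AP2B1, a subunit of the AP-2 adaptor that gathers cargo into clathrin-coated pits, had 220, 233 and 216 CPM in KO and 370 and 269 CPM in WT. All KO values lay below both WT values, and the log2 fold change was -0.52 (SE 0.12, edgeR adjusted p = 0.360). AMOT, a scaffold that binds the Hippo pathway effector YAP, had 510, 428 and 542 CPM in KO and 747 and 599 CPM in WT, a log2 fold change of -0.45 (SE 0.11, edgeR adjusted p = 0.379). Its groups did not overlap either. CSE1L, which exports importin alpha from the nucleus, had 144, 144 and 131 CPM in KO and 67.9 and 122 CPM in WT, a log2 fold change of 0.56 (SE 0.19, edgeR adjusted p = 0.494). The WT libraries of CSE1L differed from each other by more than WT replicate 2 differed from KO.

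EIF5B, the GTPase that joins the ribosomal subunits at the start codon, had 33.9, 33.1 and 32.6 CPM in KO and 22.8 and 24.3 CPM in WT. Both groups were tight, and the log2 fold change of 0.50 (SE 0.17, edgeR adjusted p = 0.488) was not called. HSBP1, which binds heat shock factor 1, had 134, 112 and 113 CPM in KO and 80.6 and 102 CPM in WT, a log2 fold change of 0.39 (SE 0.14, edgeR adjusted p = 0.509). Without WT replicate 2 the adjusted p was 6.89e-10 for AP2B1, 3.14e-08 for AMOT, 1.53e-11 for CSE1L and 4.98e-04 for HSBP1, and without WT replicate 1 it was 0.512, 0.264, 0.919 and 0.859. Without WT replicate 1 the log2 fold changes were -0.27 for AP2B1, -0.28 for AMOT, 0.19 for CSE1L and 0.23 for HSBP1. AP2B1, AMOT and CSE1L were also called with no filter on low counts, with edgeR adjusted p-values of 4.59e-04, 9.35e-04 and 0.00579.
The starts of AMOT and AP2B1 are shown because both begin with an A after T.
AMOT (chrX:112840822-112840851, minus strand): cccgttcgtccccctccccTAcctcccatc
AP2B1 (chr17:35587302-35587331, plus strand): tgggttttgcgcagtggctTAgacctagaa
Neither holds CATT in the window searched.

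**Figure D3:**
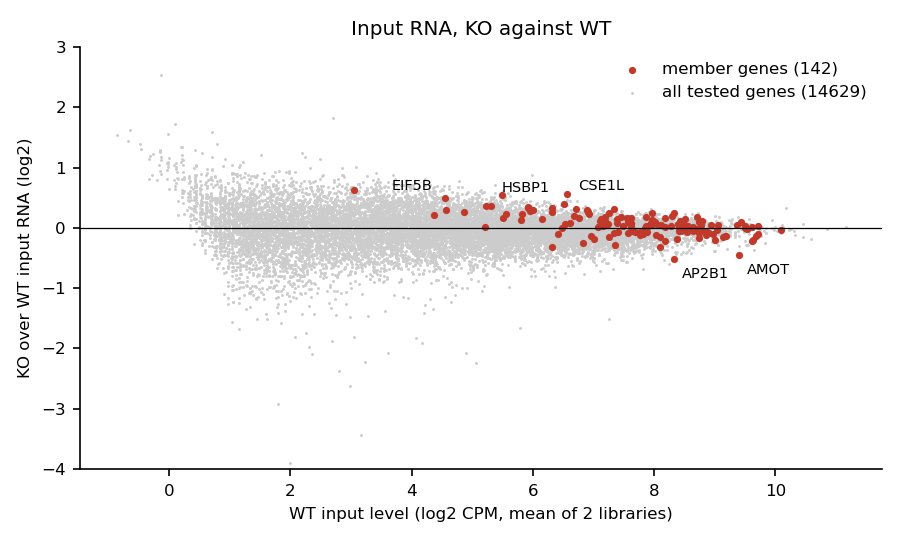
Log2 fold change of input RNA, KO over WT, against the WT level (log2 CPM, mean of 2 libraries) for the 142 member genes (large points) over all 14629 genes tested (small points). Members lie between -0.52 and 0.62, mostly at high levels, and 93 of 142 are above 0.

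By function, no member of any list was called in input by edgeR, with adjusted p-values no lower than 0.360 over all 142. The 9 measured cytosolic ribosomal protein members were all above 0, with a median log2 fold change of 0.15. The 5 measured oxidative phosphorylation members were also above 0, with a median of 0.27, such as ATP5PB at 0.35 and ATP5F1B at 0.01. Of the 13 measured splicing members 6 were above 0, with a median of -0.05, such as SF3B1 at 0.32 and HNRNPD at -0.22. These are counts of genes over the same 5 libraries and have no test of their own.

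Ribosome-protected fragments are the pieces of mRNA that a translating ribosome shields from nuclease, so their counts read ribosome occupancy. The fragment table held 785 genes, of which 132 are members. By edgeR 0 of 132 were called, against 0.0% of all 785, and by DESeq2 0. At an unadjusted p of 0.05, 5 members were higher and 3 lower in KO, against 3.82% of all genes in either direction. The members' median log2 fold change was 0.10, with 82 of 132 above 0 (62.1%), against 0.02 in 212 lower-scoring genes (50.9% above 0) and 0.00 over all genes (50.1% above 0). Without WT replicate 1, the shallowest library, the members' median was 0.01, below the 0.03 over all genes. Without WT replicate 2 it was 0.18, against 0.02 over all genes. In 19 members (14.4%) all KO libraries lay above both WT libraries, against 10.6% of all genes, and in 13 (9.85%) all lay below, against 10.4%.

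ATF4, the transcription factor of the integrated stress response, whose own reading frame is reached through upstream frames, had the smallest fragment p among members. It had 405, 335 and 286 CPM of fragments in KO and 537 and 923 CPM in WT, so all KO values lay below both WT values. The WT value of 537 CPM is from WT replicate 1, where 3 counts are about 170 CPM. The log2 fold change was -1.15 (SE 0.38, edgeR adjusted p = 0.915), and without WT replicate 2 it was -0.62. Its input RNA was level, at 353, 362 and 377 CPM in KO and 347 and 353 CPM in WT. Its region (score 4.45) covers a start that begins with A after C, and a CCATTT follows within the first bases.
ATF4 (chr22:39520539-39520568, plus strand): ggccggcgggcggccacggCAgccatttct
HSBP1 (chr16:83807958-83807987, plus strand): ccgcggtcccgcgagctgcCAgtctcgtcg
HSBP1 is shown beside it as the other member whose fragments were lower in every KO library among the 5 of smallest p. It had 786, 815 and 790 CPM of fragments in KO and 1720 and 1020 CPM in WT, a log2 fold change of -0.72 (SE 0.30, edgeR adjusted p = 0.915).

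The other 3 of the 5 members with the smallest fragment p were higher in KO. FAU, which encodes the ribosomal protein eS30 fused to a ubiquitin-like protein, had 1378, 935 and 1361 CPM of fragments in KO and 645 and 631 CPM in WT. Its log2 fold change was 0.96 (SE 0.32, edgeR adjusted p = 0.915). FARSA, the catalytic subunit of phenylalanyl-tRNA synthetase, had 810, 791 and 1093 CPM in KO and 752 and 291 CPM in WT, a difference of 1.0 on the log2 scale (SE 0.39). PYGL, the liver form of glycogen phosphorylase, had 895, 719 and 689 CPM in KO and 591 and 356 CPM in WT, a difference of 0.84 on the log2 scale (SE 0.34). In all 3 genes the groups did not overlap, and for FARSA and PYGL the WT libraries were far apart. WT replicate 1 held 17665 fragment counts in all, so 3 counts there are about 170 CPM. FARSA in that library, at 752 CPM, lay closer than this to its lowest KO library, at 791 CPM. The same held for PYGL, at 591 CPM against 689 CPM. Without WT replicate 2 the log2 fold change was 0.25 for FARSA and 0.40 for PYGL, and without WT replicate 1 it was 1.61 for FARSA and -0.36 for HSBP1.

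**Figure D4:**
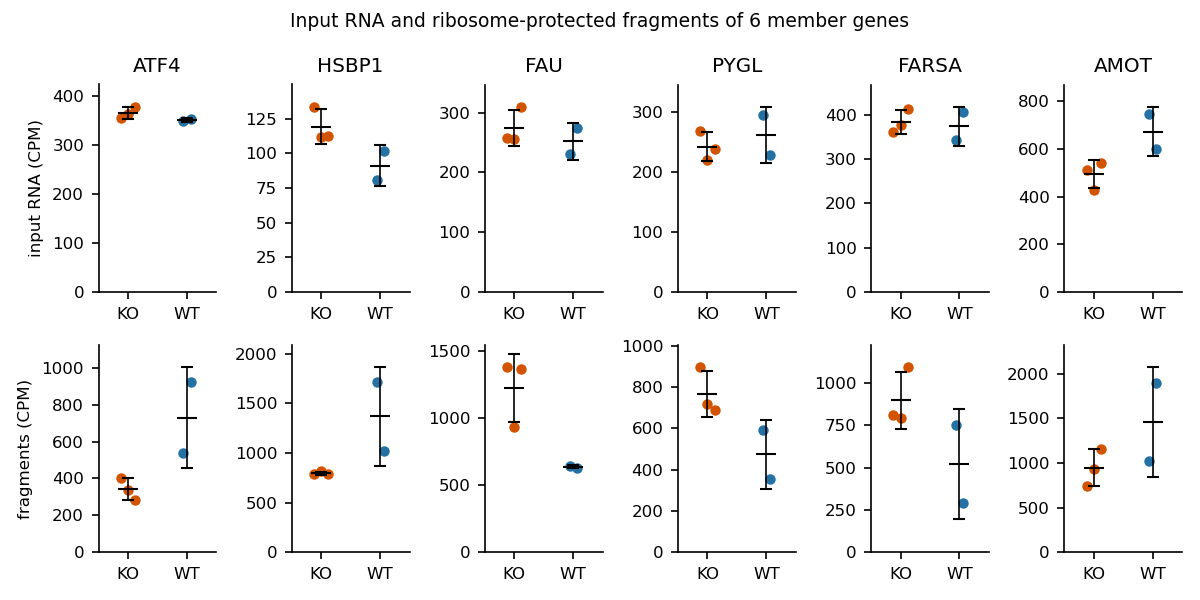
Input RNA (upper row) and ribosome-protected fragments (lower row) of 6 member genes in CPM, 1 point per library, with KO left of WT, and bars at the mean ± SD (n = 3 KO and 2 WT). ATF4 fragments were 286 to 405 CPM in KO and 537 to 923 CPM in WT, while its input lay between 347 and 377 CPM in all 5 libraries. In WT fragment replicate 1 a count of 3 is about 170 CPM.

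Translational efficiency sets the change in fragments against the change in input RNA. In 1 model over all 10 libraries edgeR called 0 of 132 members, against 0.0% of 785 genes, with 7 members higher and 5 lower at an unadjusted p of 0.05, against 6.75% of all genes in either direction. DESeq2 called 1 member, ATF4, against 0.255% of all genes. The members' median was 0.05 on the log2 scale, with 76 of 132 above 0 (57.6%), against 0.01 over all genes (50.6% above 0). Without WT replicate 1 the members' median was -0.04, below the 0.03 over all genes. Without WT replicate 2 it was 0.15, against -0.01 over all genes. For ATF4 the log2 change in efficiency was -1.21 (SE 0.29, edgeR adjusted p = 0.483), and in DESeq2 -1.24 with an adjusted p of 0.0225. In the authors' deposited table it was -1.24 (SE 0.30) with an adjusted p of 0.0225, and 2 of 764 genes (0.262%) passed 0.05 there. HSBP1 had -1.05, PYGL 1.02, FAU 0.89 and FARSA 1.11 on the log2 scale, each with an edgeR adjusted p of 0.575. Without WT replicate 2 the efficiency change was -0.64 for ATF4 and 0.10 for FARSA, and without WT replicate 1 it was 1.74 for FARSA and -0.54 for HSBP1. HSBP1 was called without WT replicate 2, at -1.66 with an edgeR adjusted p of 0.0380, and PRKDC with it, against 1.78% of all genes.

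The authors' deposited SLAM-seq table gives 1 KO over WT ratio per gene, and which quantity was divided is not stated. It names 13 members, with ratios from 0.339 to 2.68 and a median of 0.857, against a median of 0.891 over all 666 genes. Of the 13, 9 were below 1, against 40 of 66 lower-scoring genes and 402 of all 666 genes. UBE2K, a ubiquitin-conjugating enzyme, had a ratio of 2.33, and BIRC5, the inhibitor of apoptosis family member of the passenger complex, 2.68, in the authors' deposited table. A ratio of at least 1.5 was reached by these 2, against 14.0% of all genes. HNRNPC at 0.339 and EPB41L2, a membrane skeleton protein, at 0.444 were below the inverse of that fold, against 26.6% of all genes. KLC1, a kinesin light chain, had 0.669 and OS9, a lectin of endoplasmic reticulum quality control, 1.31. These values have no replicates.

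The same transcripts were searched for m6A away from the region. Each list gives single positions with the reads at the position and those carrying the substitution, and the position is the C behind the methylated A: in 570 of 570 listed positions that fall in a RefSeq promoter window the letters were AC with the C at the position. Of 410 coding members, 319 in KO replicate 1 (77.8%, exact interval 73.5 to 81.7%), 357 in KO replicate 2 (87.1%, 83.4 to 90.2%) and 334 in WT (81.5%, 77.4 to 85.1%) had at least 1 site outside the region and inside the gene. With 1 WT library there is no test of genotype, and the WT share lay between those of the 2 KO libraries. In lower-scoring genes the shares were 80.6%, 85.4% and 85.1% of 1357 genes, and in genes with no region 44.2%, 45.8% and 44.9% of 14511. The genes with no region were not filtered by RNA level, and 3778 coding genes of unknown strand were left out of them. Members thus carried sites about as often as lower-scoring genes. Their genes had a median span of 17051 nt against 22857 nt, introns included. Where measured, their median WT input was higher, at 7.88 against 7.40 log2 CPM. Neither difference was adjusted for. Members with higher WT input had more sites, with Spearman's rho of 0.48 over 142 genes, which is a description since reads are needed to list a site.

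**Figure D5:**
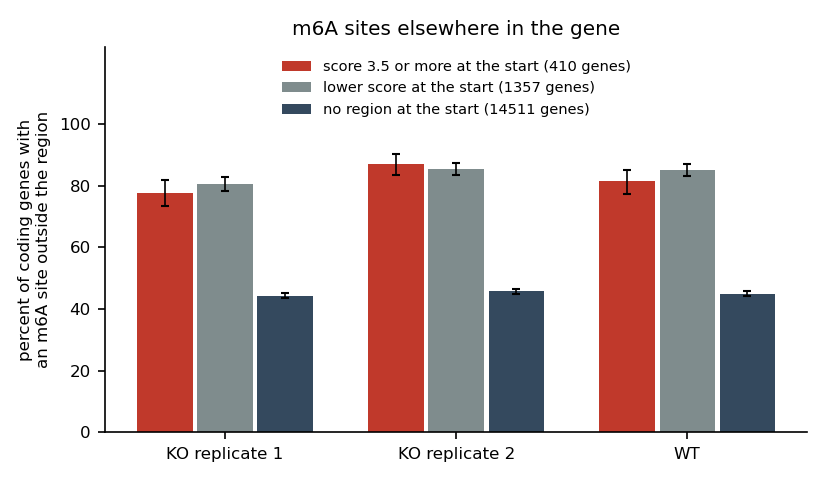
Percent of coding genes with at least 1 listed m6A site outside the start region, in each miCLIP library, for members (left bar), lower-scoring genes (middle) and genes with no region (right), with exact 95% intervals that cover counting error only. Members reach 77.8% and 87.1% in KO and 81.5% in WT, while genes with no region, not filtered by RNA level, stay between 44.2% and 45.8%.

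The sites in members numbered 1499 and 1872 in KO and 1678 in WT, with medians of 73 and 88 reads in KO and 72 in WT. The GGAC core made up 30.6% and 30.2% in KO and 30.5% in WT, and 30.2% and 30.9% in KO and 29.6% in WT lay within 1000 nt of the gene's end. At the 600 sites listed in all 3 libraries, 5.54% (5.40 to 5.68%) and 5.41% (5.29 to 5.52%) of reads carried the substitution in KO and 5.37% (5.24 to 5.496%) in WT. Sites that lost their substitutions in KO would not be in this set. Of all 1678 WT sites, 44.1% were listed in KO replicate 1 and 51.1% in KO replicate 2, and of the sites of KO replicate 1, 54.1% were listed in KO replicate 2. Where a WT site had 10 or more substituted reads, as 257 did, these shares were 93.4% in KO replicate 1 and 95.7% in KO replicate 2.

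The members with the most sites were HOXA3, a homeobox transcription factor, with 32 and 38 sites in KO and 38 in WT, and CPNE1, a calcium-binding copine, with 25 and 34 in KO and 34 in WT. For CPNE1 only 2 of the 34 WT sites lie in no other gene of that strand, since RBM12 shares its start, and for HOXA3 27 of 38 do. DDX17 had 36 and 34 sites in KO and 31 in WT, AMOT 16 and 20 in KO and 21 in WT, and NUCKS1, a nuclear DNA-binding protein, 16 and 23 in KO and 20 in WT. ZC3H13 had 9 and 19 sites in KO and 14 in WT, and METTL3 had 4 in every library, so these 2 genes of the m6A writer had a high-scoring start region and internal sites.
METTL3 (chr14:21511331-21511360, minus strand): cttgctcagctccaggggtCAttttccggt
The METTL3 start is shown because it holds CATTTT at the annotated first base. BUB1 had 0 and 4 sites in KO and 3 in WT. HSD17B10 had 0 in all 3 libraries and SNRPF had 0 and 1 in KO and 0 in WT.

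Single sites differed widely in the share of substituted reads. In SMYD5, a SET-domain methyltransferase, the site at position 73226563 of chromosome 2 (GGACA) had 38.1% of 21 and 31.8% of 22 reads in KO and 38.5% of 26 reads in WT. In PTPN1, a tyrosine phosphatase, position 50583851 of chromosome 20 (GGACA) had 33.3% of 36 and 41.1% of 73 reads in KO and 30.3% of 76 reads in WT. In ATP5IF1, the inhibitor of ATP synthase, position 28236573 of chromosome 1 (GAACT) had 14.3% of 14 and 30.8% of 26 reads in KO and 30.0% of 40 reads in WT. These were chosen as the highest WT shares among sites with at least 20 reads, and most have few reads. MOB1A and FNIP1 came next, with 29.4% of 34 and 28.6% of 21 reads in WT.

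Inside the member regions themselves the lists held few positions. There were 6 and 13 in KO and 19 in WT, in 5, 12 and 18 genes, and of the 31 different positions 12 were in KO alone, 13 in WT alone and 6 in both. The lists hold DRACH motifs only, so a methylated first base can appear only where the start reads as one. The following genes were picked after their values were seen. ZRANB2, a zinc-finger splicing protein, had 29 substituted of 86 reads in WT (33.7%), 5 nt behind the annotated start at the C of AGACA, and was listed in neither KO library.
ZRANB2 (chr1:71081026-71081055, minus strand): ccggcccgttttcctcctgTGaagacatag
TUBA1B, an alpha-tubulin, had 9 of 198 and 19 of 439 reads in KO and 18 of 1105 in WT at a position 49 nt behind its start. Its substituted reads were thus about as many in WT as in KO replicate 2, over more reads. JTB, a transmembrane protein, was listed in KO replicate 2 and WT, with 3 of 28 reads in KO and 6 of 374 in WT at 1 position and 3 of 20 and 6 of 188 at the other.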

How the data were processed

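The region scores are the authors' deposited values, and the way regions were picked is not given in the sources used here. Without giving roles, the submitters' processing notes list the builds mm10, hg38 and GRCh38 and the tools deepTools, bedtools, STAR and BWA (0.7.17). Input and fragment tables hold deposited raw read counts per Ensembl gene, and the m6A lists hold deposited counts of substituted reads. The authors' efficiency table gives log2 fold changes, p-values and a mean normalized signal under DESeq2's column names, per the file headers, and the authors' SLAM-seq table gives a ratio.

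Regions were named from RefSeq gene starts of GRCh38, and sequences are RefSeq's of GRCh38.p14. Identifiers came from the deposited class tables, of which 1424 of 1431 entries matched by accession. Tests of counts used R 4.3.3 with edgeR 4.0.16 (TMM, filterByExpr on the input, quasi-likelihood F test, two-sided, Benjamini-Hochberg over all genes tested, threshold 0.05). Standard errors were derived from the F statistic. DESeq2 1.42.0, other filters and left-out libraries were alternatives. The fits were tested on simulated data. Shares carry exact Clopper-Pearson intervals at 95%, for counting error only. Figures used matplotlib 3.10.9.

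Input totals were 4511687 to 5842630 counts in KO and 5386307 to 5960674 in WT, and fragment totals over the listed genes 46193 to 124580 in KO and 17665 to 61816 in WT. A floor of 3 counts was at most 0.665 CPM in the input and 170 CPM in WT fragment replicate 1. Of 9 HEK293T markers 3 are named in the files: LIN28B had 27.5 to 31.2 CPM in KO and 18.6 to 22.1 in WT, IGF2BP1 and IRS4 had at least 444 in each library. Fibroblast, blood and endothelial markers are not named there. No transcript lengths were used.

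Members and gene lists were chosen with earlier results of these data known. Genes are named by rule: the 10 highest scores, the 3 regions on each side of the threshold, the 5 smallest p per comparison, extremes of level, sites and SLAM-seq ratio, and the up to 3 highest scores per list. Others are further list members, the sequences shown, and genes said to be picked later. Mouse libraries were not used. Values of some single genes are not reported here.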

Additional observations from a re-analysis of the deposited data

How the results depend on the processing

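A score of 3 or more gave 815 start regions and of 4 or more 168, against 424 regions at 3.5. Counting any RefSeq transcript start, a choice made after the data were seen, gave 483, a start inside the region 397 and a start within 100 nt 432. Member genes with a WT m6A site were 334, and 219 with at least 5 substituted reads, 330 beyond 500 nt of the region and 340 without regard to strand. The members' median WT level was 7.84 log2 CPM in WT replicate 2 and 7.85 in WT replicate 1; a level per length was not run.

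In input RNA edgeR called 5 genes, DESeq2 15, edgeR with no filter 152, and with a replicate block 3. Leaving out 1 library gave 2 to 1912 genes. Member genes called were 0, with no filter 3, and 0 to 40 with 1 library left out. In fragments 0 genes were called, 6 with the replicate block and 0 to 3 with 1 library left out, and the members' median of 0.10 moved between 0.013 and 0.18. For efficiency 0 genes were called, 2 by DESeq2, of which 1 a member, and with 1 replicate left out 0 to 14, of which 0 to 2 members. The members' median efficiency change then lay between -0.039, without WT replicate 1, and 0.15, without WT replicate 2. Over all genes the medians in these settings were 0.03 and -0.01, in that order. The causes were not tested. The replicate block called 0 members in each comparison. The labels do not say whether a shared replicate number pairs libraries. The correlation of deviations was 0.19 and 0.00 for pairs 1 and 2 of the input and 0.20 and 0.21 of the fragments. With 2 WT libraries the deviations of 1 mirror those of the other, so these values cannot decide whether libraries are paired. Over all alternatives, 59 summary values stayed close and 26 moved, while of the pairs of a named gene and a setting 116 kept their side of the threshold and 9 became called, and 0 called values changed sign.

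With 2 WT libraries the precision is limited, and in WT fragment replicate 1 counts are low. With 1 WT miCLIP library no genotype test was possible.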
